A study of Homo sapiens with 24 samples.

Results

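The genes of the cytosolic ribosomal proteins were followed through senescence of SKBR3 breast cancer cells in RNA-seq libraries. Members were the protein-coding rows of the count table whose symbol starts with RPL or RPS and a number, together with RPLP0, RPLP1, RPLP2 and RPSA, and the RPS6K kinases and RPS19BP1 were left out. The rule took 87 of 14493 genes. They comprised 43 large-subunit genes, 31 small-subunit genes and 3 stalk genes, 77 in all and called the core genes here, with 7 paralogs (RPL3L, RPL7L1, RPL22L1, RPL26L1, RPL36AL, RPL39L and RPS27L) and 3 read-through loci that join a ribosomal protein gene to its neighbour. All 87 passed the filter on low counts in every comparison.

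The series holds 24 libraries, 3 in each of 8 groups of SKBR3 (SKBr3 in the labels), a single HER2-positive line whose cultures were the only model used here. Untreated cells were taken while proliferating at day 0 and again at day 7. The 6 drug groups were taken at day 7 and refed at day 3: ND-646, an inhibitor of acetyl-CoA carboxylase, at 250 nmol/L, TVB-3166, an inhibitor of fatty acid synthase, at 250 nmol/L, alisertib, an Aurora A kinase inhibitor, at 500 nmol/L, doxorubicin, a topoisomerase II poison, at 10 nmol/L, bleomycin, a DNA-breaking agent, at 10 µmol/L, and palbociclib (Palboclib in the labels), a CDK4/6 inhibitor, at 1 µmol/L. The labels do not say whether the 3 replicates of a group were separate cultures, so p-values measure the spread between these libraries, which may be technical.

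Each cytosolic ribosome is built from single copies of nearly all proteins encoded by these genes, assembled with ribosomal RNA into a small subunit that decodes mRNA and a large subunit that joins amino acids. Their mRNAs are short and abundant, and most begin at a cytidine followed by a run of pyrimidines, the 5′ terminal oligopyrimidine (TOP) tract, through which mTORC1 and the RNA-binding protein LARP1 control their translation and stability. Some members also act away from the ribosome, such as RPL5 and RPL11, which bind MDM2 when ribosome assembly is disturbed.

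Most core genes with a listed start carry a TOP tract there, and some paralogs do not. The 30 bases around RefSeq start sites (GRCh38.p14) are therefore printed for members on which the results below turn. Each runs 5′ to 3′ on the strand of the gene from 5 bases before the listed start, and capitals mark a C followed by at least 4 pyrimidines that begins within 5 bases of it.
RPS6 (chr9:19380212-19380241, minus strand): tggCCCTCTTTTCCgtggcgcctcggaggc
RPL13 (chr16:89560677-89560706, plus strand): gCTTCCTTTCCgctcggctgttttcctgcg
RPS27 (chr1:153990757-153990786, plus strand): tcgCTCCTTTCCggcggtgacgacctacgc
RPLP1 (chr15:69452813-69452842, plus strand): gagagCCCCTTTCCTCagctgccgccaagg
RPL26 (chr17:8383169-8383198, minus strand): tagttCTCTTCCCTTTTgcggccatcaccg
RPL19 (chr17:39200318-39200347, plus strand): tttCCTTTCgctgctgcggccgcagccatg
RPSA (chr3:39406715-39406744, plus strand): cctgtCTTTTCCgtgctacctgcagagggg
RPS28 (chr19:8321491-8321520, plus strand): acgtgaCTCCTCTCCgccagaccgccgccg
RPL22 (chr1:6199571-6199600, minus strand): aCCTCCCTTTCTaactccgctgccgccatg
RPL22L1 (chr3:170870171-170870200, minus strand): gCTTCCTCTCTgctctcgcggccgactcgc
RPL26L1 (chr5:172958724-172958753, plus strand): gggtcggcgaacgaaacgcggagctcggga
RPL7L1 (chr6:42879611-42879640, plus strand): gcgccgtagctaggagcggacgccataggt
RPS27L (chr15:63157453-63157482, minus strand): cgagcgcagatcgcttgcagcttgctagct

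Such a run was present at 53 of the 62 core genes with a listed start (85.5%), against 2969 of 9967 protein-coding genes of the table (29.8%). Among genes with 1 listed start the shares were 45 of 52 core genes (86.5%) and 22.8% of all. Of the paralogs with a listed start, 2 of 5 carried it, and RPL22L1 had one whereas RPL26L1, RPL7L1 and RPS27L did not. The 69 mitochondrial ribosomal protein genes with a listed start held it at 16 (23.2%). A match describes these letters only.

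Totals ranged from 29405121 to 44316330 counts per library, so counting error was small for the core genes. Of 7 markers of breast epithelial lines 6 were in the table, and their summed level was 9610 to 20022 CPM (counts scaled to library size) in all libraries. Of 10 markers of other cell types 4 were in the table, and PTPRC, CD3E, PECAM1, COL1A2, COL3A1 and PDGFRB were not among them. Their summed level was at most 20.5 CPM in day-0 libraries and highest in bleomycin (45.6 to 74.0 CPM) and ND-646 (54.6 to 67.0 CPM) libraries, led by the macrophage and lysosome gene CD68, and the part of such markers in the results was not tested. The 8 proliferation markers summed to 2019 to 2232 CPM at day 0 and to 306 to 411 CPM with ND-646. In bulk RNA, fewer cells of a type and less RNA per cell cannot be told apart.

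The library labelled ND-646 replicate 1 stood apart from replicates 2 and 3 of that group. The median core gene lay 1.14 above the day-0 mean on the log2 CPM scale in it, with 77 of 77 core genes above that mean, against 0.12 and 0.02 in replicates 2 and 3, where 49 and 39 of 77 were above. Its 78 mitochondrial ribosomal protein genes had a median of -0.05, against -0.64 and -0.69. Its proliferation markers, at 370 CPM, lay within the range of the other 2 ND-646 libraries. The ND-646 counts, and the ND-646 values against day 0 that passed the test, are therefore given with and without it. In 8 of 8 groups the library numbered 3 had the lowest median of the core genes, and the labels do not say what a number marks.

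Per length, the members spanned several orders of magnitude. RPL19, a large-subunit gene at chr17:37356536-37361093 (GRCh37, plus strand), had the highest level, 15516 CPM per coding kb as a mean of the 8 group means, against a core median of 1203. RPL41, the shortest coding sequence at 75 nucleotides, followed with 11865 CPM per coding kb, a value that its untranslated ends inflate, then RPL7 with 5442 and RPS24 with 4370. The lowest core gene was RPS28 with 232 CPM per coding kb, and its pseudogene RPS28P7 held 116 counts for every 100 on RPS28, so the level of RPS28 is uncertain. Paralogs had a median of 63.7 CPM per coding kb and reached 241 in RPL7L1. Pseudogene rows of the family, 178 in all, took 1.18 to 1.31 counts per 100 member counts by group mean, and RPS28, RPS2, RPL9 and RPL36A were the 4 of 50 parents above 10 per 100.

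RPL19 is the member that took the largest share of reads in every library. Its 3 day-0 libraries read 10241, 10272 and 8899 CPM and its doxorubicin libraries 7264, 8379.6 and 6378 CPM, all below day 0, for a log2 fold-change of -0.41 ± 0.15 (adjusted p = 0.0453) that turned to 0.10 when a trend with transcript length, described below, was removed. Alisertib libraries read 7779, 8120.5 and 7534 CPM, also below day 0 (-0.33 ± 0.11, adjusted p = 0.0345), and this call was lost with that trend removed (adjusted p = 0.983). The ND-646 libraries read 18062, 10226 and 9626 CPM, so that replicate 1 was far above day 0 and the other 2 lay within its range. The ND-646 value of 0.36 did not pass the test, and without replicate 1 it was 0.02.

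Together the members took 6.64% ± 0.423 (SD, n = 3) of all counts at day 0 and 6.52% ± 0.247 at day 7 without drug. Doxorubicin cells had the lowest share, 5.02%, 5.61% and 4.49% in their 3 libraries, all below the lowest day-0 library at 6.33%. Alisertib cells held 5.85%, 6.13% and 5.52%, also all below day 0. Bleomycin cells, at 6.03% to 6.97%, and palbociclib cells, at 5.45% to 6.53%, overlapped day 0, as did TVB-3166 cells at 5.63% to 6.37%. ND-646 cells held 11.1%, 6.87% and 6.37%, a mean of 8.13% ± 2.62 that rests on replicate 1. No test was run on this sum.

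Other short mRNAs lay near the core genes in doxorubicin and alisertib libraries and below them in palbociclib, bleomycin and ND-646 libraries. Outside the family, the 631 protein-coding genes with a transcript of at most 1 kb had medians of -0.40 to -0.65 relative to the day-0 mean in doxorubicin libraries, where the core genes had -0.35 to -0.75. In alisertib libraries the medians were -0.31 to -0.35 for the short genes and -0.28 to -0.42 for the core genes. In palbociclib libraries the short genes, at -0.40 to -0.60, lay below the core genes at -0.16 to -0.43, and in bleomycin libraries they lay at -0.36 to -0.54 while core genes were at -0.22 to 0.07. ND-646 replicate 1 had a median of 0.42 for the short genes and -0.25 for the 4822 genes over 4 kb, the opposite order to replicates 2 and 3 (-0.40 and -0.45 for short genes, 0.13 and 0.16 for long ones). Each comparison's counts of members are therefore followed below by those after the trend of the other genes with transcript length had been removed in each library, an alternative chosen after seeing the data. In it the 3 read-through loci, which have no listed length, were left as they were, and 17 core genes whose reference transcript exceeds 2 kb were corrected as long genes. The part of transcript length in the results was not tested beyond it.

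Doxorubicin, the topoisomerase II poison, had the most members called lower as fitted. Against day 0, 74 of 87 members were lower and 2 were higher by edgeR's quasi-likelihood test at an adjusted p under 0.05, where 24.8% of all genes tested were lower and 23.7% higher. The members' median log2 fold-change was -0.52. All comparisons with day 0 share its 3 libraries. All 3 libraries were below all day-0 libraries for 69 of 77 core genes, and the share of all genes that separated so was not computed. By subunit, 38 of 43 large-subunit genes, 30 of 31 small-subunit genes and 3 of 3 stalk genes were lower. Once the length trend was removed, the count was 20 lower and 7 higher (22.9% and 23.2% of all genes), at a median of -0.10. The share of members lower was then near the background and the share higher below it. Without doxorubicin replicate 3 the count of members called was 50 in place of 76.

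The largest falls with doxorubicin were in small-subunit genes. RPS28 read 53.2, 67.8 and 48.1 CPM at day 0 and 27.3, 33.2 and 20.9 CPM with doxorubicin, a log2 fold-change of -1.04 ± 0.17 (SE; adjusted p = 0.00101) subject to its pseudogene. RPS9 followed at -0.83 ± 0.11 (adjusted p = 0.000282) and RPS2 at -0.81 ± 0.15 (adjusted p = 0.00203). All 3 remained lower with the length trend removed, at -0.72, -0.31 and -0.38. The 2 higher members were RPL3L, a muscle paralog near the detection limit, and the read-through locus RPL17-C18orf32.

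Alisertib came next in the number of members lowered. The count was 55 lower and 1 higher against backgrounds of 19.6% and 17.7%, with a median log2 fold-change of -0.35. Here 26 of 43 large-subunit and 24 of 31 small-subunit genes were lower. RPS26, which sits at the mRNA exit channel, read 236, 262 and 226 CPM at day 0 and 165, 152 and 139.5 CPM with alisertib, without overlap, and its log2 fold-change was -0.67 ± 0.10 (adjusted p = 0.000758). Removing the length trend left 20 lower, with RPS26 among them at -0.45, and 3 higher (18.9% and 18% of all genes), at a median of -0.05. The number of members called without 1 library ranged from 14, without alisertib replicate 3, to 66, and was 32 without alisertib replicate 1, 33 without alisertib replicate 2 and 25 without untreated day-0 replicate 2.

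Palbociclib lowered 38 members and raised 1, against 27.2% and 26% of all genes, at a median of -0.29. The largest falls in the core were those of RPL35, a protein near the exit tunnel, at -0.74 ± 0.12 (adjusted p = 0.000523), and RPS28 at -0.68. RPL3 and RPL13A, both of the large subunit, had estimates of 0.07 and 0.02 that did not pass the test. After removal of the length trend 9 were lower and 21 higher (27.2% and 26.7% of all genes) and the median turned to 0.11. RPL35 then stood at -0.16 and was no longer called (adjusted p = 0.13), RPS28 was still lower at -0.39, and RPL3 and RPL13A passed as higher, at 0.36 and 0.36. Without palbociclib replicate 3, or without untreated day-0 replicate 2, 16 members were called in place of 39.

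TVB-3166 lowered 21 members and raised none by edgeR, against 27.7% and 27.4% of all genes, so the share lower was near the background and the share higher below it. No member was higher at an unadjusted p under 0.05 either, nor by DESeq2. Small-subunit genes made up 11 of the 21. RPS19, a small-subunit protein mutated in Diamond-Blackfan anaemia and named after its values were seen, had the largest fall of the core genes. It read 591, 662 and 557 CPM at day 0 and 388, 358 and 341 CPM with TVB-3166, without overlap, for a log2 fold-change of -0.73 ± 0.11 (adjusted p = 0.000169). The median of the members was -0.19. With the length trend removed 9 members were lower and 12 higher (28.9% and 29.1% of all genes) and the median turned to 0.06. Leaving out TVB-3166 replicate 1, 2 or 3 gave 32, 11 or 10 members called.

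Bleomycin lowered 11 members and raised 2, against 25.3% and 24.1%, both below the background, at a median of -0.01. RPS26 was among those lower (-0.63 ± 0.11, adjusted p = 0.00149), with libraries at 164, 162 and 139 CPM. RPL26, a large-subunit protein, rose from 601, 487 and 429 CPM at day 0 to 673, 718 and 605 CPM, a log2 fold-change of 0.40 ± 0.14 (adjusted p = 0.0405). Once the length trend was removed, 44 members were higher and 2 lower (25.6% and 24.4% of all genes), the median turned to 0.35, and RPL26 stood at 0.93. Without untreated day-0 replicate 2 the number called was 4 in place of 13, without bleomycin replicate 2 it was 8, and without bleomycin replicate 3 it was 7.

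ND-646 gave the highest median, 0.48, but few calls: 3 members were higher and 2 lower, against 19.1% and 18.8%. The 3 were RPL13, RPS27 and RPL23. RPL13 read 817, 889 and 670.1 CPM at day 0 and 2406, 1249.7 and 1023 CPM with ND-646, RPS27 439, 454 and 372 CPM and 1239.8, 589 and 557 CPM, and RPL23 299, 285 and 255 CPM and 737, 375 and 364 CPM. For each, all ND-646 libraries lay above all day-0 libraries, with replicate 1 far above the other 2. Their log2 fold-changes were 0.97 ± 0.31 (adjusted p = 0.0365), 0.91 ± 0.30 (adjusted p = 0.0405) and 0.81 ± 0.27 (adjusted p = 0.0411).

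Without ND-646 replicate 1 the median of the members was 0.04, 3 members were higher and 13 lower, and 27.1% and 27.8% of all genes were called higher and lower. RPL13, RPS27 and RPL23 then had log2 fold-changes of 0.52, 0.44 and 0.40 (adjusted p = 0.0178, 0.0126 and 0.012). RPSA, the laminin receptor of the small subunit, was then lower at -0.48 (adjusted p = 0.02), as were RPS26 at -0.69 and RPS9 at -0.55. Of these 3 only RPS26 was still called when the length trend was removed as well, at -0.37. After removal of the length trend 51 members were higher and 6 lower without replicate 1 (28.1% and 29.2% of all genes), at a median of 0.32, and 50 higher and 3 lower with it (26.2% in each direction). The number of members called was also 16 without ND-646 replicate 3, 2 without untreated day-0 replicate 1, and 1 without untreated day-0 replicate 2 or 3.

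**Figure D1:**
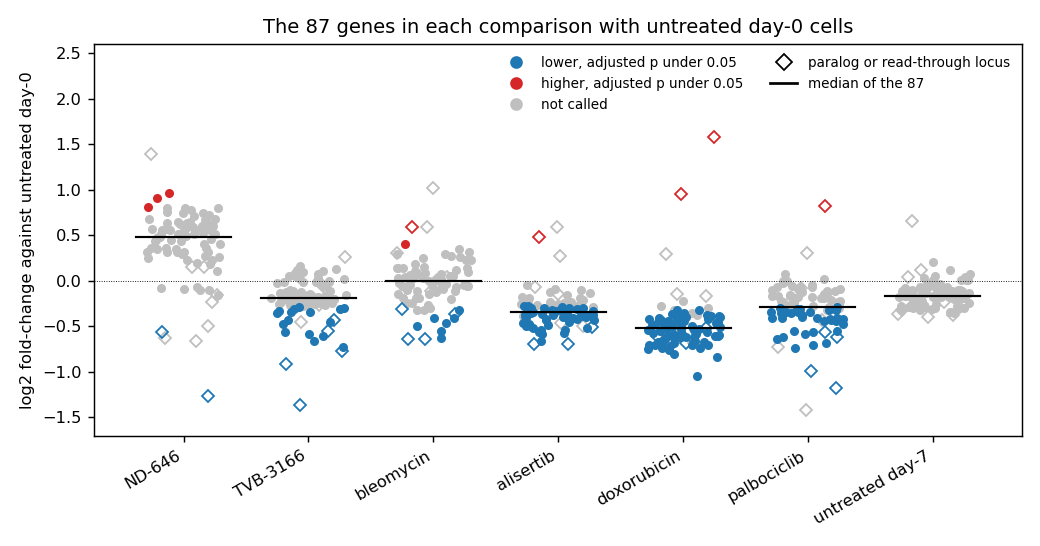
Log2 fold-change against untreated day-0 cells (y axis) of each of the 87 members in 7 comparisons (x axis), coloured by the edgeR call, with paralogs and read-through loci as open diamonds and the median as a line. The medians run from -0.52 with doxorubicin to 0.48 with ND-646, where 3 members are higher and 2 lower.

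**Figure D2:**
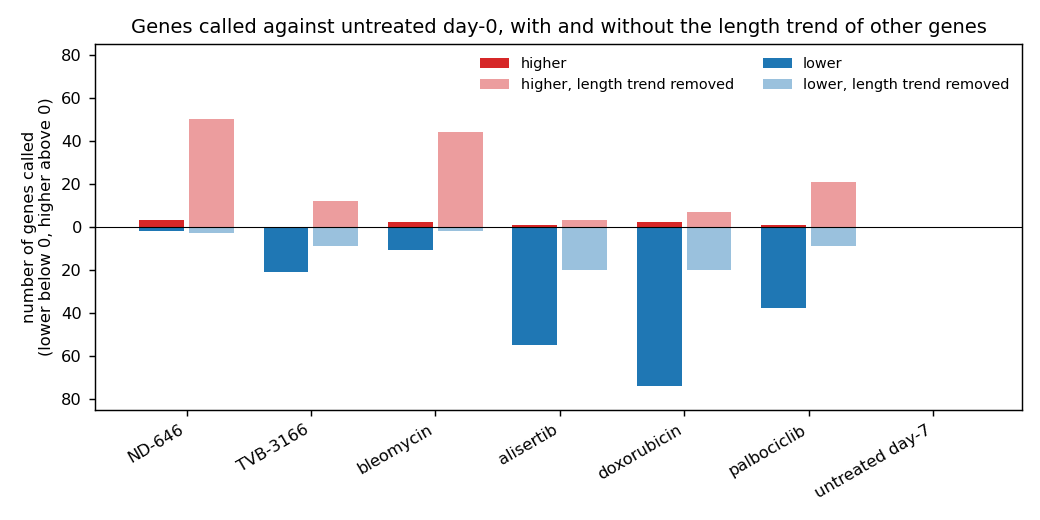
Number of members called higher (above 0) or lower (below 0) against untreated day-0 cells (y axis) in the 7 comparisons (x axis), as fitted (full colour) and with the length trend of the other genes removed in each library (pale). Doxorubicin goes from 74 lower to 20 lower, and bleomycin from 2 higher to 44 higher.

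Culture to day 7 without drug moved no member past the threshold. By edgeR 0 of 87 were called against day 0, where 0.389% of all genes were higher and 0.198% lower. At an unadjusted p under 0.05, 1 was higher and 16 were lower, and DESeq2 called 4. The median of the members was -0.16. With the length trend removed 0 were called by edgeR (0.632% of all genes higher and 0.388% lower), at a median of -0.04.

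Against untreated day-7 cells, which share the days in culture, fewer members were lower with doxorubicin, alisertib and palbociclib. The labels give refeeding at day 3 for the drug groups only, so refeeding and drug cannot be told apart in these comparisons. Doxorubicin cells had 54 members lower and 2 higher (21.5% and 21.9% of all genes), at a median of -0.34, and without doxorubicin replicate 1 the number called was 35 in place of 56. Removal of the length trend, called length correction below, left 20 lower and 11 higher (20.6% and 22.1% of all genes), at a median of -0.07. Alisertib cells had 14 lower and 0 higher by edgeR (9.49% and 9.55% of all genes). Same-numbered alisertib and day-7 libraries deviated together, and with the number as a block 40 were lower. Without 1 library the count ranged from 0, when alisertib replicate 3 was left out, to 11, with 2 when alisertib replicate 2, 7 when untreated day-7 replicate 1 and 3 when untreated day-7 replicate 3 was left out. At an unadjusted p under 0.05, 1 member was higher with alisertib, and DESeq2 called 0 higher. Length correction left 1 lower and 3 higher (10.3% of all genes in each direction), at a median of -0.06. Palbociclib cells had 16 lower and 0 higher by edgeR (22.9% and 22%), 27 lower and 1 higher with the number as a block, 1 higher at an unadjusted p under 0.05, and 0 higher by DESeq2. Leaving out untreated day-7 replicate 1 gave 8 called and leaving out palbociclib replicate 3 gave 10. The direction turned for palbociclib after length correction, with 3 lower and 31 higher (23.1% and 23.2%) at a median of 0.13.

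With bleomycin and ND-646 more members were higher than lower against day 7, but the shares higher were near the background. With bleomycin 19 members were higher and 3 lower (22.4% and 23.2% of all genes), at a median of 0.12, and the number called fell from 22 to 7 without untreated day-7 replicate 3, to 10 without untreated day-7 replicate 1 and to 12 without bleomycin replicate 2. Length correction gave 49 higher and 1 lower (24.4% and 22.6%), at a median of 0.36. With ND-646 14 were higher and 1 lower (17.2% and 17.1%) at a median of 0.63. Without ND-646 replicate 1, 31 were higher and 12 lower at a median of 0.16, and the background was then 26.7% and 28.3%. Leaving out ND-646 replicate 3 gave 34 called, untreated day-7 replicate 1 gave 2, and untreated day-7 replicate 2 or 3 gave 1. Length correction gave 59 higher and 4 lower (25.4% and 25%) at a median of 0.55, or 59 higher and 3 lower (28.4% and 29.4%) at 0.34 without ND-646 replicate 1. TVB-3166 cells had 3 higher and 10 lower (25.4% and 26.1%) at a median of -0.01. That comparison gave 23 calls without TVB-3166 replicate 1 and 8 without TVB-3166 replicate 3, and after length correction 18 were higher and 6 lower (27.8% and 27.6%) at a median of 0.07. These 6 comparisons share the day-7 libraries.

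Both lipogenesis inhibitors were also compared directly. Between TVB-3166 and ND-646, edgeR called 0 members, where 0.52% of all genes were higher and 0.198% lower, although the median log2 difference was -0.66. At an unadjusted p under 0.05, 0 were higher and 36 lower in TVB-3166, and DESeq2 called 1. Same-numbered libraries of both drugs deviated together, and the block also gave 0. Without ND-646 replicate 1 the median shrank to -0.21 and 13 members were lower with TVB-3166, where 6.01% and 5% of all genes were higher and lower. Length correction gave 27 lower and 0 higher (3.2% and 4.16% of all genes) at a median of -0.45, or 51 lower and 0 higher (6.35% and 7.23%) at -0.30 without ND-646 replicate 1.

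In the contrast of both lipogenesis inhibitors with the mean of the other 4 drugs, 73 members were higher and 4 lower, against 26.3% and 24.7% of all genes, at a median of 0.44. RPS28 (0.85 ± 0.16, adjusted p = 0.000169), RPS27 (0.72 ± 0.12) and RPLP1 (0.71 ± 0.12) had the largest positive values, and RPL17-C18orf32 (-0.74 ± 0.22), RPS10-NUDT3 (-0.70 ± 0.24) and RPL7L1 (-0.38 ± 0.04) the largest negative ones. Without ND-646 replicate 1 the count was 51 higher and 6 lower at a median of 0.21 (24.4% and 25.4% of all genes). TVB-3166 alone against the other 4 drugs gave 1 higher and 1 lower at a median of 0.09 (16.4% and 16.9% of all genes), or 11 higher and 3 lower (21% and 20.3%) when ND-646 replicate 1 was left out of the estimate of the spread, all below the background. ND-646 alone gave 79 higher and 2 lower (25.6% and 21.8%) at a median of 0.76, or 47 higher and 5 lower (19.1% and 20.1%) at 0.31 without its replicate 1. After removal of the length trend the contrast of both inhibitors gave 49 higher and 4 lower (28% and 28.9% of all genes) at a median of 0.16, and 38 higher and 6 lower (26.5% and 28.7%) at 0.13 without ND-646 replicate 1.

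Among members with roles outside protein synthesis, most calls came with doxorubicin. RPS6, the substrate of the S6 kinases, read 1234, 1339 and 1186 CPM at day 0, 897, 967 and 756 CPM with doxorubicin and 2917, 1534 and 1394 CPM with ND-646. The doxorubicin libraries lay below day 0 without overlap (-0.51 ± 0.12, adjusted p = 0.00732), and it passed the test in no other comparison with day 0. That call was lost with the length trend removed (-0.20, adjusted p = 0.0921), while ND-646 then passed at 0.65, or 0.49 without replicate 1. RPL5 and RPL11, the MDM2 binders, were lower with doxorubicin, at -0.44 ± 0.11 and -0.42 ± 0.14 (adjusted p = 0.00923 and 0.03). Once the length trend was removed, they stood at -0.03 and -0.01, and neither was called. RPL11 was also called lower with alisertib, and that call was lost with the length trend removed (-0.16, adjusted p = 0.335). RPS3, which also acts in DNA repair, was lower with TVB-3166, alisertib, doxorubicin and palbociclib, at -0.30, -0.33, -0.51 and -0.29. Only its alisertib and doxorubicin calls remained without the length trend (-0.25 and -0.35). With a reference transcript of 2059 bases, RPS3 is among the core genes corrected as long genes.

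RPSA read 2565, 2298 and 1992 CPM at day 0 and 1345, 1546 and 1169 CPM with doxorubicin. It was lower with TVB-3166 (-0.48), alisertib (-0.52), doxorubicin (-0.74 ± 0.15, adjusted p = 0.00229) and palbociclib (-0.57). Of these, TVB-3166, alisertib and doxorubicin still passed the test with the length trend removed, at -0.27, -0.30 and -0.37. RPL41 was lower in all but the ND-646 and TVB-3166 groups, at -0.41, -0.58, -0.71 and -0.55 with bleomycin, alisertib, doxorubicin and palbociclib, of which only the alisertib call remained once the length trend was removed (-0.23, adjusted p = 0.0423), when the bleomycin value turned to 0.06. RPS27A, which is made as a fusion with ubiquitin, was lower with TVB-3166 (-0.43), alisertib (-0.36) and doxorubicin (-0.42). All 3 calls were lost without the length trend, at -0.16, -0.05 and 0.06. RPL13A, a repressor of interferon-induced translation once released from the ribosome, passed the test with doxorubicin only among the day-0 comparisons, at -0.45 ± 0.13 (adjusted p = 0.0189). That call too was lost without the length trend (-0.06), and RPL13A then passed as higher with ND-646 (0.53), bleomycin (0.35) and palbociclib (0.36).

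The stalk genes RPLP0, RPLP1 and RPLP2 encode the flexible arm that recruits elongation factors. RPLP0 read 1157, 1173 and 1016 CPM at day 0 and 739, 841 and 652 CPM with doxorubicin. All 3 stalk genes were lower with doxorubicin, at -0.57, -0.53 and -0.62, and with the length trend removed none of the 3 was called, at -0.19, -0.17 and 0.03. RPLP1 with ND-646 read 1606, 785 and 705 CPM, all above the day-0 libraries at 536, 692 and 568 CPM, and its log2 fold-change of 0.78 ± 0.31 did not pass the test (adjusted p = 0.0743). Without replicate 1 it was 0.31 (adjusted p = 0.084).

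All 7 paralogs were called in at least 1 drug group, and the share of all genes called so was not computed. With TVB-3166 alone 27.4% of all genes were called higher and 27.7% lower. RPL26L1 read 32.4, 29.7 and 31.3 CPM at day 0 and 15.5, 17.8 and 13.8 CPM with palbociclib, and was lower in 5 of 6 drug groups, at -0.64 to -0.99 on the log2 scale. Only ND-646 missed the threshold (-0.66 ± 0.24, adjusted p = 0.0613), with libraries at 28.8, 14.7 and 16.2 CPM, and without replicate 1 it passed at -1.01. The calls with bleomycin and doxorubicin were lost with the length trend removed (-0.19 and -0.17), whereas those with TVB-3166, alisertib and palbociclib remained. RPL26 itself passed the test with bleomycin only, where it was higher, and with the length trend removed it stood at 0.30, 0.33 and 0.54 with TVB-3166, doxorubicin and palbociclib. RPL39L had libraries at 40.4, 34 and 30.2 CPM at day 0 and 21.8, 17.7 and 15.9 CPM with TVB-3166, a log2 fold-change of -0.91 ± 0.15 (adjusted p = 0.000338). It was also lower with bleomycin (-0.64), doxorubicin (-0.60) and palbociclib (-0.62), and of these 4 calls only that with TVB-3166 passed with the length trend removed (-0.63). ND-646 did not pass for RPL39L as fitted but passed without replicate 1 (-1.11), with the length trend removed (-0.59) and with both (-0.71). RPL39 itself was lower with TVB-3166 (-0.29), alisertib (-0.52), doxorubicin (-0.60) and palbociclib (-0.43), and of these only the alisertib value stayed below 0, at -0.03, without the length trend.

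RPL7L1, which takes part in making the large subunit, was lower with the lipogenesis inhibitors. Day-0 libraries read 224, 212 and 200.2 CPM, ND-646 libraries 143, 149 and 141 CPM and TVB-3166 libraries 145, 149.5 and 139 CPM, so that replicate 1 of ND-646 did not stand apart for this gene. The log2 fold-changes were -0.56 ± 0.13 (adjusted p = 0.00923) and -0.55 ± 0.09 (adjusted p = 0.000395), against -0.31 with bleomycin, which also passed, and -0.14, -0.14 and -0.07 with alisertib, doxorubicin and palbociclib, which did not. Its direct difference between lipogenesis inhibitors and the other drugs was -0.38 (adjusted p = 4.06e-07). After removal of the length trend the values against day 0 were -0.56 and -0.58 for ND-646 and TVB-3166, and without ND-646 replicate 1 the uncorrected ND-646 value was -0.55.

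Against day 0, RPL22L1 was higher with palbociclib and alisertib. It read 13.1, 20.5 and 19.7 CPM at day 0 and 31.2, 30.6 and 32.4 CPM with palbociclib, without overlap (0.82 ± 0.16, adjusted p = 0.00137), and with alisertib its log2 fold-change was smaller in size (0.48 ± 0.17, adjusted p = 0.0425). RPL22, whose loss is known to raise RPL22L1, was lower with alisertib (-0.39) and doxorubicin (-0.52) and stood at -0.05 with palbociclib, which did not pass. Untreated day-7 libraries already read 24.1, 34.7 and 24.7 CPM of RPL22L1, and palbociclib was not called against them. Per kb of transcript, its mean with alisertib (13.1 CPM) lay below that of untreated day-7 cells (14.6 CPM). RPL36AL was lower in 5 of 6 drug groups (-0.36 to -0.57), while with ND-646 its libraries read 140.0, 62.2 and 62.5 CPM and the value turned from 0.15 to -0.34 (adjusted p = 0.0149) without replicate 1. None of the 5 calls remained once the length trend was removed, with values of -0.17 with alisertib to 0.10 with bleomycin. RPS27L had 3 day-0 libraries at 16.1, 8.25 and 10.7 CPM and was lower with alisertib only (-0.69 ± 0.22, adjusted p = 0.0303). RPL3L had few counts, at 0.534, 0.576 and 1.15 CPM at day 0 and 2.78, 1.71 and 2.21 CPM with doxorubicin (1.58 ± 0.34, adjusted p = 0.0039).

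Read-through loci had few counts of their own, and how reads shared with the joined genes were assigned is not given in the sources used here. RPS10-NUDT3 read 3.31, 6.68 and 4.41 CPM at day 0 and was lower with ND-646 (1.7, 1.39 and 2.88 CPM), TVB-3166 (2.34, 1.74 and 1.47 CPM) and palbociclib (2.2, 1.24 and 2.9 CPM), at -1.27, -1.36 and -1.17 on the log2 scale, with -1.16 (adjusted p = 0.026) for ND-646 without its replicate 1. RPL17-C18orf32 was higher with bleomycin (0.59 ± 0.16) and doxorubicin (0.96 ± 0.18). RPL36A-HNRNPH2 passed in no comparison with day 0, and its palbociclib libraries read 4.89, 0.444 and 0.537 CPM.

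Ribosome components that the symbol rule misses were also lower in some drug groups. FAU, which encodes a small-subunit protein fused to a ubiquitin-like sequence, was lower with TVB-3166 (-0.58), bleomycin (-0.64), alisertib (-0.72), doxorubicin (-0.78) and palbociclib (-0.78). ND-646 did not pass for it (-0.10) but did without replicate 1 (-0.55, adjusted p = 0.00532). The TVB-3166, alisertib and palbociclib calls of FAU remained with the length trend removed, at -0.24, -0.29 and -0.23. RACK1, a scaffold on the small subunit, was lower with alisertib (-0.37) and doxorubicin (-0.60), and its values of -0.26 with TVB-3166, -0.27 with palbociclib, -0.08 with bleomycin and 0.33 with ND-646 did not pass. Both RACK1 calls were lost without the length trend.

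Other mRNAs with a TOP tract, 16 in all, were lower with doxorubicin at 9 and with alisertib at 5, with 0 higher by edgeR in each, at medians of -0.37 and -0.25, where 24.8% and 19.6% of all genes were lower. Palbociclib gave 5 lower and 1 higher, TVB-3166 3 lower and 1 higher, and bleomycin 1 lower and 4 higher. In the same order, 27.2%, 27.7% and 25.3% of all genes were lower and 26%, 27.4% and 24.1% higher. With ND-646, 3 of the 16 were higher and 0 lower by edgeR, or 5 and 1 without replicate 1, with 19.1% and 27.1% of all genes higher. Removal of the length trend left 8 lower with doxorubicin and 5 with alisertib, where 22.9% and 18.9% of all genes were lower. TPT1, the translationally controlled tumour protein, was higher with ND-646 (1.11 ± 0.26, adjusted p = 0.00986, or 0.80 without replicate 1) and TVB-3166 (0.46 ± 0.12).

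Of 9 elongation factors, 5 were lower and 1 higher with each of TVB-3166, doxorubicin and palbociclib. In these, 27.7%, 24.8% and 27.2% of all genes were lower and 27.4%, 23.7% and 26% higher. Alisertib and bleomycin gave 3 lower and 1 higher each, and ND-646 2 and 1, or 3 and 2 without its replicate 1. For these 3 drugs in turn, 19.6%, 25.3% and 18.8% of all genes were lower and 17.7%, 24.1% and 19.1% higher. Without ND-646 replicate 1 the shares were 27.8% and 27.1%. Removal of the length trend left 3, 4 and 3 lower with TVB-3166, doxorubicin and palbociclib (28.9%, 22.9% and 27.2% of all genes). EEF1A2, the tissue-restricted form of elongation factor 1, was higher in all 6 drug groups (0.31 with TVB-3166 to 1.85 with bleomycin). Its ND-646 value was 1.06, or 0.82 without replicate 1. Of 40 initiation factors, 23 were lower and 3 higher with TVB-3166, 22 and 2 with doxorubicin, 20 and 2 with alisertib, 17 and 4 with palbociclib, 15 and 7 with bleomycin, and 8 and 4 with ND-646, or 20 and 5 without its replicate 1. The shares of all genes lower in these comparisons were 27.7%, 24.8%, 19.6%, 27.2%, 25.3% and 18.8%, or 27.8% without that replicate. Initiation factors lower with the length trend removed numbered 20, 19, 21, 19, 9 and 16 in the same order of drugs. The shares of all genes lower were then 28.9%, 22.9%, 18.9%, 27.2%, 24.4% and 26.2%.

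Among 20 regulators of mTORC1, S6 kinase and TOP mRNAs that were tested, 2 were higher and 5 lower with TVB-3166 and the same numbers with doxorubicin, near or below the shares of all genes (27.4% and 27.7%, and 23.7% and 24.8%). DEPTOR, an inhibitor of mTOR, was higher in every drug group, from 0.42 with doxorubicin to 1.42 with ND-646 (1.42 without its replicate 1). RPS6KB2, which encodes S6 kinase 2, was lower in every drug group, from -0.73 with alisertib to -1.01 with ND-646 (-1.15 without its replicate 1).

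Genes that build ribosomes were called lower more often than higher in every drug group. Of 39 RNA polymerase I and assembly genes, 29 were lower and 3 higher with TVB-3166, 20 and 2 with ND-646, 21 and 2 with alisertib, 21 and 4 with bleomycin, 20 and 4 with palbociclib, and 17 and 2 with doxorubicin, where 27.7%, 18.8%, 19.6%, 25.3%, 27.2% and 24.8% of all genes were lower. The ND-646 count was 29 lower and 2 higher without its replicate 1. Of the 38 with a listed length, 11 with palbociclib and 11 with doxorubicin were lower once the length trend was removed, where 27.2% and 22.9% of all genes were. With TVB-3166, ND-646, alisertib and bleomycin 27, 22, 18 and 16 were lower, where 28.9%, 26.2%, 18.9% and 24.4% of all genes were. BOP1, an assembly factor of the large subunit, stood at -1.47 ± 0.12 with TVB-3166 and at -1.40 ± 0.17 with ND-646, or -1.50 without its replicate 1.

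Of the 78 mitochondrial ribosomal protein genes, 62 were lower with TVB-3166, 64 with bleomycin, 63 with palbociclib, 28 with ND-646, 69 with doxorubicin and 55 with alisertib, at medians of -0.38 to -0.57, against 27.7%, 25.3%, 27.2%, 18.8%, 24.8% and 19.6% of all genes. The ND-646 count was 68 at a median of -0.66 without its replicate 1, against 27.8% of all genes. Removal of the length trend left 51, 44, 40, 45, 40 and 31 lower in the same order of drugs, at medians of -0.23 to -0.42. The shares of all genes lower were then 28.9%, 24.4%, 27.2%, 26.2%, 22.9% and 18.9%. Of the MDM genes, MDM4 was higher in all 6 drug groups (0.78 to 1.23, also called with ND-646 when its replicate 1 was left out) and MDM2 passed in none (-0.13 to 0.08).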

How the data were processed

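RNA was sequenced from stranded libraries (the labels name an mRNA kit and the study's methods a total RNA kit), and the authors deposited whole-number counts per gene for 24 libraries. The submitters' processing notes name bcl2fastq, HISAT2, StringTie, DESeq2 and GRCh37. The counting settings, the treatment of reads shared with pseudogenes and the use of strand are not given in the sources used here. The lowest count in the table is 1, so genes with a 0 in any library were not in it.

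Counts were tested with edgeR 4.0.16 (R 4.3.3): filterByExpr, TMM factors, quasi-likelihood F test, 6 libraries per pair of groups and all 24 for the contrast of lipogenesis inhibitors with the other drugs, with Benjamini-Hochberg adjustment over all genes tested and a call at an adjusted p under 0.05. CPM values are TMM-scaled, with 2 added as the prior count before log2. Values after ± are SD for levels and shares and SE for log2 fold-changes. Transcript and coding lengths came from the reference (MANE Select) transcripts of a GENCODE annotation lifted to GRCh37, matched by symbol. Start sites came from RefSeq (GRCh38.p14), also matched by symbol. Members and lists were chosen with earlier results of these data known, so no list has a p of its own.

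Named members were the 3 largest called changes in each direction against day 0 and between drugs, the paralog pairs, the stalk, members with roles outside the ribosome, the read-through loci, and those with the highest and lowest level per length. RPS19, RPS24 and RPL9 fall outside this rule and were named after their values were seen.

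Same-numbered libraries were taken as paired where all 3 pairs correlated over 0.1 in their deviations from the group means. This held for alisertib against day 0, for ND-646, bleomycin, alisertib, doxorubicin and palbociclib against day 7, and for TVB-3166 against ND-646. Alternatives were DESeq2 1.42.0, RLE factors, TMM factors from the other genes, the unfiltered table, a minimum of 10 counts per library, one fit of all 24 libraries, the replicate block, and each library left out. Removal of the length trend (lowess of each library's deviation on transcript length over the other genes), the fits without ND-646 replicate 1, both for the other lists too, and the contrasts of single drugs were added after seeing the data. The scripts were tested on simulated counts for 13818 genes, with 7 false calls. Some genes of the lists are not reported here.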

Additional observations from a re-analysis of the deposited data

Results flagged for a closer look

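In ND-646 every library had a median of the 77 core genes above the day-0 mean, whereas in 4 other drug groups every library lay below it. The difference of the group means, on the log2 scale, was 0.608 from TVB-3166, 0.758 from alisertib, 0.965 from doxorubicin and 0.699 from palbociclib. Replicates 2 and 3 of ND-646 lay 0.12 and 0.02 above the day-0 mean and replicate 1 lay 1.14 above it, so the sizes rest on replicate 1. Gene by gene, the difference from TVB-3166 was tested by edgeR and gave 0 members, with 36 lower at an unadjusted p under 0.05 and 1 by DESeq2. The differences from alisertib, doxorubicin and palbociclib were not tested as pairs. The 8 groups were each of 3 libraries, too few for the search for single outlying samples.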

How the results depend on the processing

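Of 4890 values recomputed under other settings, 4228 were counted as unchanged. A named member was counted so if it kept its direction and side of the threshold. It was also counted so if it was called in neither fit, whatever its sign. Counts, medians and shares were counted so if they moved by less than the limit set for them. DESeq2 called 13 members with ND-646 and 4 with untreated day 7 against day 0, 31 with ND-646 and 23 with alisertib against day 7, and 1 between TVB-3166 and ND-646. Without a filter on low counts ND-646 against day 0 gave 3. With all 24 libraries in one fit the members called against day 0 were 48 with ND-646, 10 with TVB-3166, 7 with bleomycin, 9 with alisertib, 49 with doxorubicin, 15 with palbociclib and 1 with untreated day 7. Against day 7 that fit gave 64 with ND-646, 3 with TVB-3166, 5 with bleomycin, 0 with alisertib, 16 with doxorubicin and 1 with palbociclib, and 48 between TVB-3166 and ND-646. The same fit without ND-646 replicate 1, added after seeing the data, gave 59 with alisertib, 81 with doxorubicin and 43 with palbociclib against day 0, near the pairwise counts, 20 with ND-646 and 4 with untreated day 7 against day 0, and 36, 5 and 7 with ND-646, alisertib and palbociclib against day 7. In it the value of RPL36AL with ND-646 was -0.34. The cause of these moves was not tested.

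The replicate number as a block gave 12 members with ND-646, 25 with bleomycin and 2 with untreated day 7 against day 0, and 23 with TVB-3166, 40 with alisertib and 28 with palbociclib against day 7. In the first 4 of these the numbers did not pair the libraries by the check used. The block moved no other count of members by over 1.5 times. With bleomycin, doxorubicin and palbociclib against day 0 and TVB-3166 against day 7, which fell short of that check, every library correlated best with its own number, a hint from the data and not from the design.

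Leaving out 1 library at a time gave 1 to 16 members called with ND-646, 10 to 32 with TVB-3166, 4 to 13 with bleomycin, 14 to 66 with alisertib, 50 to 80 with doxorubicin and 16 to 47 with palbociclib against day 0. Against day 7 the ranges were 1 to 43, 8 to 23, 7 to 30, 0 to 11, 35 to 75 and 8 to 16 in the same order of drugs. It was 0 to 13 between TVB-3166 and ND-646.

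With the length trend of the other genes removed, 53 members were called with ND-646, 46 with bleomycin, 23 with alisertib and 27 with doxorubicin against day 0, and against day 7 the counts were 63 with ND-646, 24 with TVB-3166, 50 with bleomycin, 4 with alisertib, 31 with doxorubicin and 34 with palbociclib. The medians against day 0 were 0.058 with TVB-3166, 0.35 with bleomycin, -0.055 with alisertib, -0.10 with doxorubicin and 0.11 with palbociclib. Those against day 7 were 0.36 with bleomycin, -0.057 with alisertib, -0.075 with doxorubicin and 0.13 with palbociclib. Between TVB-3166 and ND-646 27 members were called. Without ND-646 replicate 1 as well, 57 were called with ND-646 against day 0, 62 against day 7, 51 between both lipogenesis inhibitors and 44 in the contrast with the other 4 drugs. TVB-3166 alone against those 4 gave 2, or 14 without ND-646 replicate 1.

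Some named members called against day 0, as fitted or without the length trend, changed sign on its removal. With TVB-3166 they were RPL26 (0.30), RPL39 (0.081) and RPLP2 (0.045). Bleomycin had RPL36AL (0.10), RPL39 (0.49), RPL41 (0.056), RPLP0 (0.30), RPLP2 (0.52) and RPL35 (0.022). Alisertib had RPL36A (0.037), RPLP2 (0.072) and RPS27 (0.27). Doxorubicin had RPL19 (0.10), RPL26 (0.33), RPL36AL (0.011), RPL39 (0.090), RPL36A (0.020), RPLP2 (0.028), RPS27 (0.34) and RPS27A (0.064). Palbociclib had RPL26 (0.54), RPL39 (0.18), RPLP2 (0.24) and RPS27 (0.39). Changes of sign in members called in neither fit are not listed. RPL36AL with ND-646 turned to -0.34 without ND-646 replicate 1, and the value of RPL17-C18orf32 with TVB-3166 ran from -0.53 without TVB-3166 replicate 1 to 0.32 without TVB-3166 replicate 2.

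Without RPL19 the share of counts on members was 5.69% at day 0, 5.63% at day 7, 5.10% with TVB-3166, 5.55% with bleomycin, 5.01% with alisertib, 4.27% with doxorubicin and 5.27% with palbociclib. In data simulated on the doxorubicin comparison, 24 of 100 genes changed by 0.5 on the log2 scale and 85 of 100 changed by 1 were recovered. Neither depth nor the number of libraries a group was varied in it, so the part of each was not tested.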
